A study of Mus musculus with 14 samples.

Results

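This account follows 10 imprinted genes, *H19*, *Igf2*, *Meg3*, *Rian*, *Dlk1*, *Peg3*, *Peg10*, *Mest*, *Grb10* and *Igf2r*, in mouse embryonic stem cells (mESCs) with and without the METTL14 R255K substitution, which replaces an arginine by a lysine. The genes were chosen by symbol, with earlier results of these data known, and all 10 were found among the 52459 genes of the count tables. Both groups were cells of the E14Tg2a line kept in medium with serum and LIF. The WT group had the unedited METTL14. The METTL14 R255K group carried the substitution, knocked into the endogenous gene with CRISPR-Cas9 and isolated as single colonies, so that the genotype cannot be told apart from the history of a clone. For RNA-seq, cells of each genotype received 5 µg/ml of actinomycin D, which blocks transcription, and were collected at 0, 4 and 8 h, with 1 library per genotype and time and between 13812160 and 18813640 counts in a library. For MeRIP-seq, in which RNA fragments that bear N6-methyladenosine (m6A) are captured with an antibody, 2 IP and 2 input libraries per genotype were made from total RNA, and 1 peak list per genotype was deposited.

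An imprinted gene is transcribed mainly from the chromosome inherited from the mother or mainly from that of the father, because a control region nearby was DNA-methylated in only the egg or only the sperm. Many such genes lie in clusters, act on growth of the fetus and placenta, and vary between embryonic stem cell lines because the methylation of the control regions is not always kept in culture. METTL14 is the partner of METTL3 in the complex that writes m6A, a mark placed mostly on adenosines in the letters GGAC or close variants of them and known for shortening the life of many mRNAs in these cells.

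The mark was found on exons of 7 of the 10 genes. The WT list held 11 peaks, on *Meg3*, *Rian*, *Peg3*, *Peg10*, *Grb10* and *Igf2r*, and the R255K list held 9, on *H19*, *Meg3*, *Rian*, *Peg3*, *Peg10* and *Grb10*. No exonic peak was listed for *Igf2*, *Dlk1* or *Mest* in either genotype. A WT peak was thus present on 6 of 10 genes, where 57.4% of all genes whose mean FPKM at 0 h was 1 or more had an exonic WT peak, and an R255K peak on 6 of 10, where the share over all such genes was 43.6%. FPKM is the number of counts per kilobase of exon, scaled to the same total in each library.

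Sequences at or near the summits of selected peaks are shown 5′ to 3′ on the strand of the transcript, from the mm10 reference. They are 101 bases centred on the summit in noncoding RNA and coding sequence, and 30 bases around the GGAC nearest to the summit in 3′UTRs. Capitals mark GGAC. The first was in the R255K list alone, the next 3 were WT peaks without an overlapping R255K peak, and the last 4 were WT summits in peaks found in both lists.
H19, chr7:142577878-142577978, minus strand: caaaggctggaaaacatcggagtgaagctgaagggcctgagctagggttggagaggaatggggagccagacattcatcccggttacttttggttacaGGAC
Peg3 coding sequence, chr7:6708877-6708977, minus strand: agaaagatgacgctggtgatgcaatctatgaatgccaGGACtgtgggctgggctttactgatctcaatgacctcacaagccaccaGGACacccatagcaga
Peg10 distal 3′UTR, chr6:4759433-4759462, plus strand: gaccagtcacgaaGGACcgcctgcagactc
Igf2r 3′UTR, chr17:12683660-12683689, minus strand: aaggtggagccatGGACagccaagcacctc
Meg3, chr12:109571489-109571589, plus strand: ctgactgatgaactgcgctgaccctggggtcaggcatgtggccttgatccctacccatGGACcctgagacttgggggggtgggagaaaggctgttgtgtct
Rian, chr12:109660894-109660994, plus strand: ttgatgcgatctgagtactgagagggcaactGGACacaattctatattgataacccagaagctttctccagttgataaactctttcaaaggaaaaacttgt
Peg3 3′UTR, chr7:6707296-6707325, minus strand: acattgaacgcagGGACtctttcagtttta
Grb10 3′UTR, chr11:11933292-11933321, minus strand: tcaattagttattGGACttcacaaagattt

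In the actinomycin D libraries, 5 of the 10 genes (*H19*, *Igf2*, *Dlk1*, *Peg10* and *Mest*) stood more than 2-fold higher in the R255K library at 0 h, 1 (*Grb10*) was more than 2-fold lower, and 4 lay between. The same genes stood on the same sides at 4 h and at 8 h. Ratios are given as log2 of R255K FPKM + 1 over WT FPKM + 1, and a gene counts as higher or lower where this is at least 1 from 0. Over the 11869 genes that reached this mean level, 6.44% were higher and 5.92% lower at 0 h. With scaling to the ribosomal protein genes these shares were 5.16% and 8.74%, and with the trend by GC content subtracted 6.66% and 3.42%. At 4 h 10.8% were higher and 2.16% lower, and at 8 h 21.5% were past 2-fold in either direction (2258 genes higher and 292 lower), against 6 of the 10 imprinted genes. At all 3 times 3.88% of all these genes were higher and 0.902% were lower, against 5 and 1 of the 10 imprinted genes. The median log2 ratio of the 10 genes was 0.56 at 0 h, 1.00 at 4 h and 1.18 at 8 h, and that of all genes 0.05, 0.18 and 0.33. All 10 genes passed the minimum mean level, but *H19* and *Dlk1* were under 1 FPKM in the WT library at 0 h and passed through R255K. The list was also chosen with earlier results of these data known, so that these counts and medians only describe it. Each genotype and time has 1 library and the times are not replicates of each other, so no test between genotypes was made, and the 95% intervals given here (exact Poisson for a level, exact conditional binomial for a ratio) cover counting error only.

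**Figure D1:**
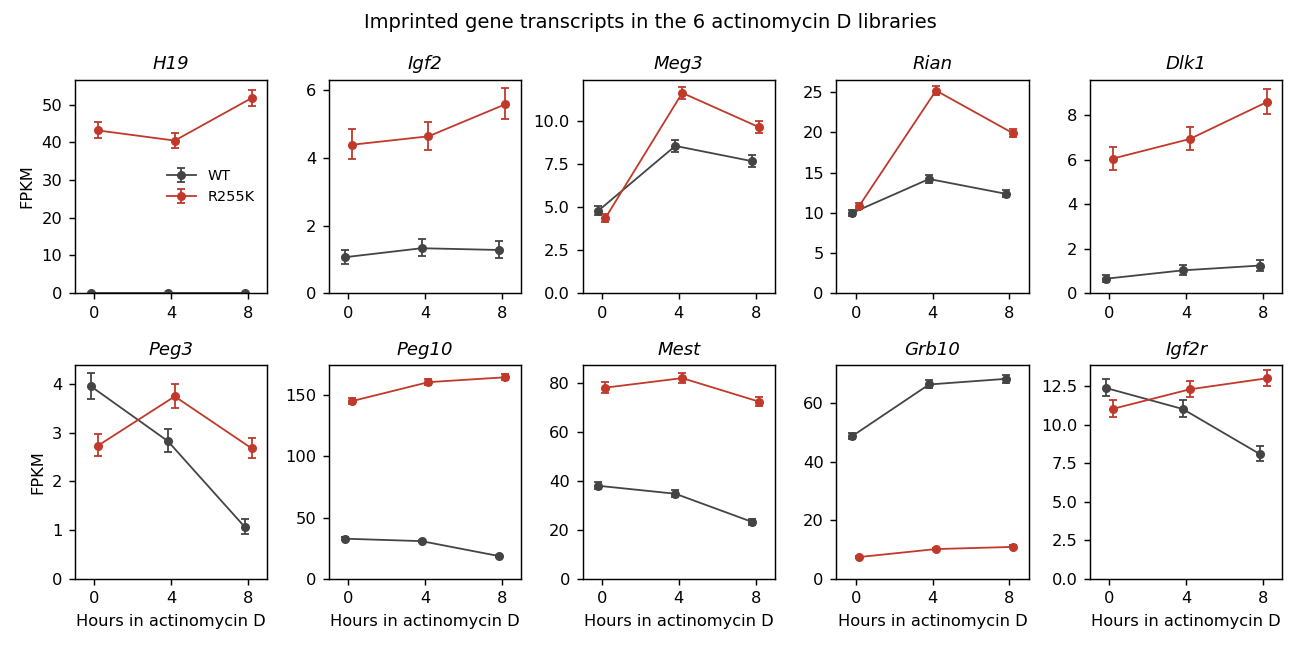
FPKM of the 10 imprinted genes (y axis, a scale of its own for each gene, from 0) at 0, 4 and 8 h in actinomycin D (x axis) in the WT (grey) and R255K (red) library, with exact 95% Poisson intervals of the counts. *H19* was at 0 in all WT libraries and between 40.5 and 51.8 FPKM in R255K, whereas *Grb10* lay between 48.8 and 68.4 FPKM in WT and between 7.43 and 10.9 in R255K.

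**Figure D2:**
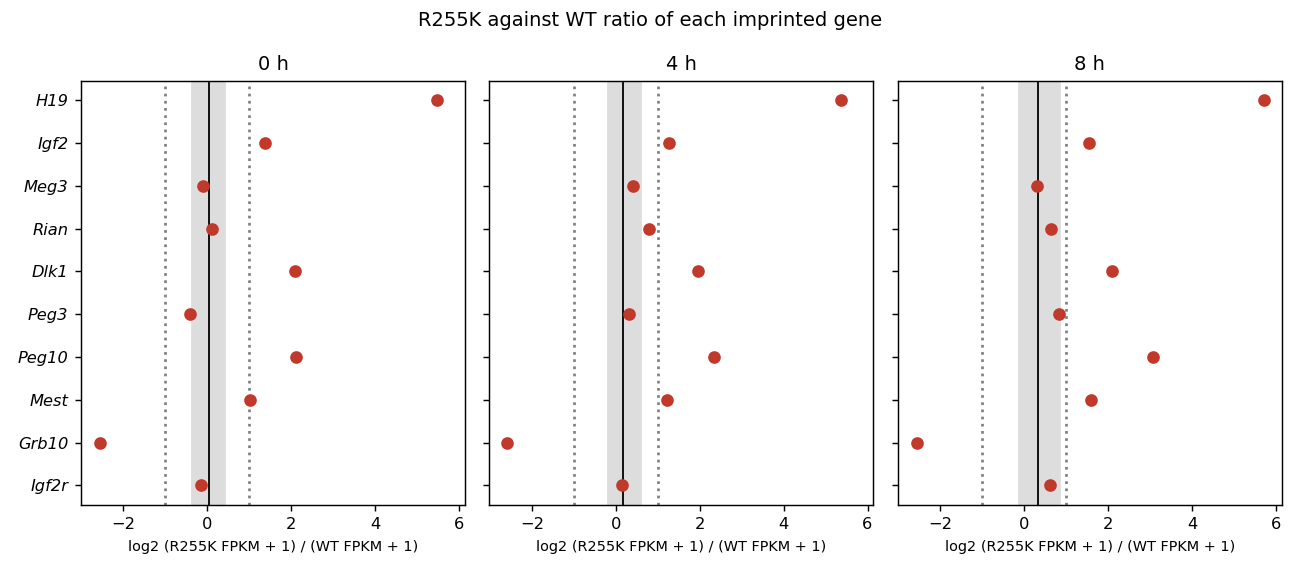
Log2 ratio of R255K over WT (x axis, FPKM + 1) of each gene at 0, 4 and 8 h in actinomycin D, 1 point per gene and time. The black line is the median and the grey band the middle 50% of 11869 genes, and dotted lines mark the 2-fold limits. At each time *H19*, *Igf2*, *Dlk1*, *Peg10* and *Mest* lie right of the upper limit and *Grb10* left of the lower limit.

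*H19* and *Igf2* lie side by side on distal chromosome 7. *Igf2* encodes a growth factor of the fetus and is expressed from the paternal chromosome, and *H19* is a noncoding RNA expressed from the maternal chromosome under the same control region. *H19* (ENSMUSG00000000031.16, chromosome 7, 142575529 to 142578143, minus strand) had 0 counts in the WT libraries at 0, 4 and 8 h. In R255K it had 1603 counts at 0 h, 1787 at 4 h and 2312 at 8 h, or 43.2 FPKM (41.1 to 45.4), 40.5 (38.7 to 42.4) and 51.8 (49.7 to 54.0). With each WT library set at a floor of 3 counts, R255K was 595-fold higher at 0 h, 480-fold at 4 h and 566-fold at 8 h. The exact 95% interval of the ratio, in which the upper limit of a count of 0 is 3.69 counts, starts at 484, 390 and 460. Over all 52459 genes, 32 had 0 counts in the 3 WT libraries and at least 10 in each R255K library. Of these 32, 1 was among the 10 genes and 2 were on the list of other imprinted genes described below. With at least 100 counts in each R255K library 2 genes remained, *H19* and *Plagl1*, which are both imprinted. The 10 genes were chosen with earlier results of these data known, so that these counts only describe them.

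*Plagl1*, a zinc finger transcription factor gene on chromosome 10 that is expressed from the paternal chromosome, was looked at after its values were seen. It had 0 counts in each WT library and 159, 464 and 409 counts in R255K at 0, 4 and 8 h. It stayed under the minimum mean level at 0 h and is in none of the counts past 2-fold.

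*Igf2* (ENSMUSG00000048583.16, chromosome 7, 142650766 to 142666816, minus strand) had 106, 114 and 101 counts in WT at 0, 4 and 8 h, against 393, 494 and 602 in R255K. This was 1.06 FPKM (0.870 to 1.29) in WT and 4.39 FPKM (3.97 to 4.85) in R255K at 0 h. *Igf2* was low in both genotypes and higher in R255K at each time. The ratio was 4.13 (3.33 to 5.17) at 0 h, 3.49 (2.84 to 4.32) at 4 h and 4.38 (3.54 to 5.46) at 8 h. Of the annotated exon bases of *Igf2*, 62.8% are shared on the same strand with *Gm49394*, which was not analysed here. The antisense gene *Igf2os* shares 1.71% and had 3 to 25 counts, and the library kit does not mark strand, so that the reads of overlapping genes cannot be told apart.

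Around *H19*, within 1 Mb, 12 other genes passed the minimum level, whose log2 ratios at 0 h had a median of 0.60 against 0.13 on the rest of chromosome 7. Among them 5 were higher in R255K, where 6.44% of all genes were: *Tssc4* (log2 ratio 1.31), *Phlda2* (1.29), *Ascl2* (1.14), *Mrpl23* (1.10) and *Ctsd* (1.05). That distal chromosome 7 was higher in R255K was known when the genes were chosen, so that this median and count only describe it. *Cdkn1c*, which encodes an inhibitor of the cell cycle and is expressed from the maternal chromosome, was lower, at 52.2, 67.9 and 71.8 FPKM in WT and 25.2, 31.9 and 32.5 in R255K at 0, 4 and 8 h. *Phlda2*, which restrains placental growth and is maternally expressed in the same cluster as *Cdkn1c*, stood at 75.2 FPKM in WT and 185 in R255K at 0 h. Neighbours on this arm therefore went both ways at 0 h, none of them as far as *H19*.

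*Dlk1*, *Meg3* and *Rian* share a cluster on chromosome 12. *Dlk1* encodes a transmembrane relative of Notch ligands and is expressed from the paternal chromosome, whereas *Meg3* and *Rian*, long noncoding RNAs of which *Rian* carries many small nucleolar RNAs, are expressed from the maternal one. *Dlk1* (ENSMUSG00000040856.17, chromosome 12, 109452823 to 109463336, plus strand) had 64, 87 and 97 counts in WT at 0, 4 and 8 h, against 536, 730 and 915 in R255K. The levels were 0.649 FPKM (0.500 to 0.829) and 6.06 FPKM (5.56 to 6.59) at 0 h. *Dlk1* was higher in R255K at each time, with a ratio of 9.33 (7.19 to 12.3) at 0 h, 6.76 (5.41 to 8.54) at 4 h and 6.93 (5.61 to 8.63) at 8 h.

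The maternally expressed genes of the same cluster did not follow *Dlk1*. *Meg3* (ENSMUSG00000021268.17, chromosome 12, 109541001 to 109571726, plus strand) had 4.80, 8.57 and 7.68 FPKM in WT and 4.36, 11.7 and 9.65 FPKM in R255K at 0, 4 and 8 h. *Rian* (ENSMUSG00000097451.10, chromosome 12, 109603940 to 109661716, plus strand) had 9.98, 14.2 and 12.4 FPKM in WT and 10.8, 25.2 and 19.9 FPKM in R255K. At 0 h the genotypes lay within 1.10-fold of each other for *Meg3* and 1.08-fold for *Rian*. Neither passed 2-fold at any time, and both were higher in R255K at 4 and 8 h, *Rian* 1.77-fold (1.71 to 1.84) at 4 h. The *Rian* exons have the lowest GC content of the 10 genes, 38.2%, and the log2 ratio at 0 h was lower for transcripts of low GC content. The ratio does not say which library departs. With the trend over all genes subtracted, the log2 ratio of *Rian* at 0 h moved from 0.11 to 0.87. *Mirg*, the noncoding RNA at the far end of the cluster, had 1.20 FPKM in WT and 1.78 in R255K at 0 h, *Rtl1* had 36 and 28 counts and *Dio3* 14 and 43 counts. None of the 9 other genes within 1 Mb of *Dlk1* passed 2-fold at 0 h, and their log2 ratios ran from −0.84 to 0.36. Over all genes 6.44% were higher and 5.92% lower.

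**Figure D3:**
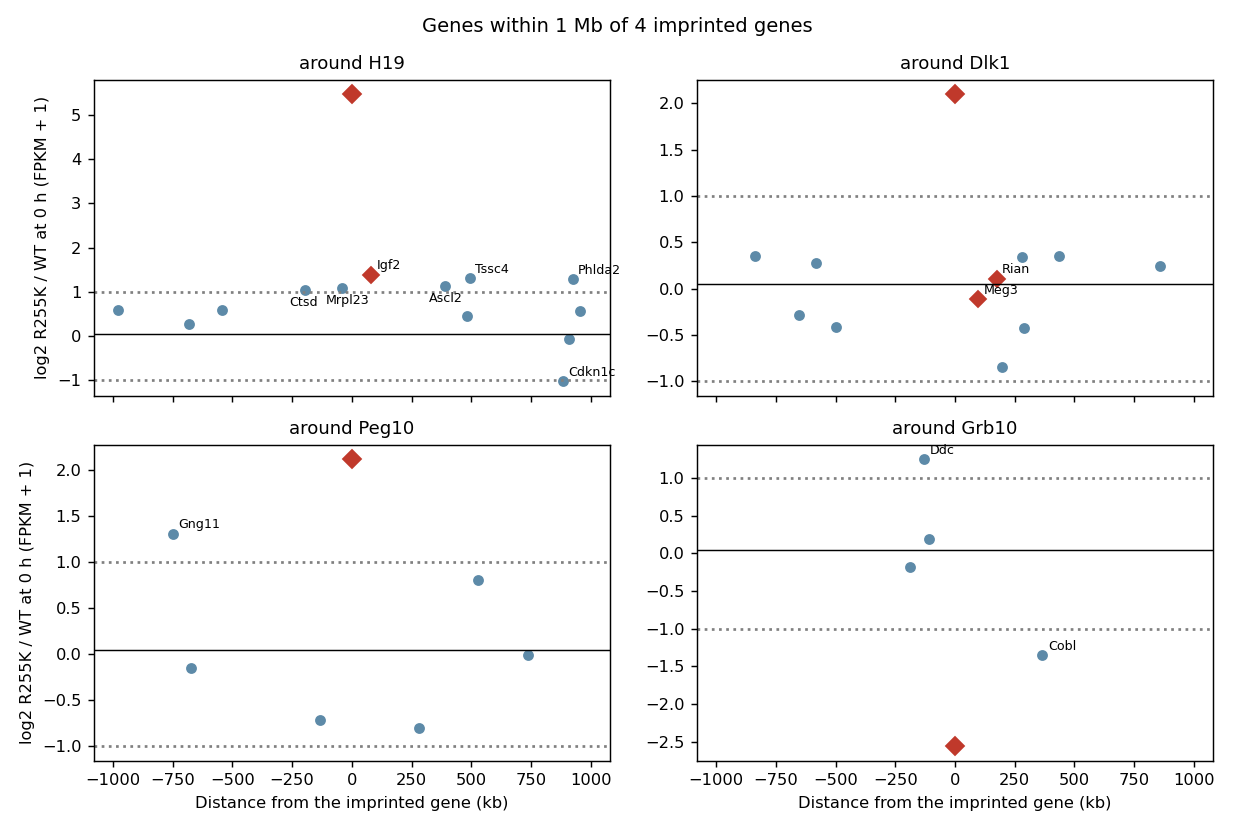
Log2 ratio of R255K over WT at 0 h (y axis, FPKM + 1) of genes within 1 Mb of *H19*, *Dlk1*, *Peg10* and *Grb10* by distance between gene midpoints in kb (x axis). Red diamonds are the imprinted genes followed here, blue points the other genes that reached the minimum mean level, the black line the median of all genes and dotted lines the 2-fold limits. *Dlk1* at 2.10 stands above its 9 neighbours, and *Grb10* at −2.56 stands below its 4.

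*Peg10*, *Mest* and *Peg3* are paternally expressed. *Peg10* derives from a retrotransposon and is required for the placenta, and it was the most abundant of the 10 transcripts in R255K. *Peg10* (ENSMUSG00000092035.8, chromosome 6, 4747306 to 4760517, plus strand) stood at 32.8 FPKM (31.7 to 33.8), 30.8 and 18.6 in WT and at 145 FPKM (143 to 147), 161 and 165 in R255K at 0, 4 and 8 h. *Peg10* was higher in R255K at each time. The ratio was 4.43 (4.27 to 4.59) at 0 h, 5.22 (5.03 to 5.43) at 4 h and 8.83 (8.41 to 9.28) at 8 h, and 3.34% of the 11869 genes had a higher FPKM than *Peg10* in R255K at 0 h, against 17.6% in WT. *Sgce*, which starts beside *Peg10* and is paternally expressed with it, was too low for the minimum mean level, with 37, 15 and 28 counts in WT against 200, 314 and 289 in R255K.

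*Mest* (ENSMUSG00000051855.15, chromosome 6, 30723547 to 30748465, plus strand), a gene of the hydrolase fold family, had 37.9, 34.7 and 23.2 FPKM in WT and 78.0, 81.9 and 72.2 in R255K. The ratio of *Mest* was 2.06 (1.96 to 2.16) at 0 h, 2.36 (2.24 to 2.48) at 4 h and 3.12 (2.93 to 3.32) at 8 h. At 0 h the log2 ratio of 1.02 was close to the limit, and it fell to 0.98 with TMM factors and to 0.87 with scaling to the ribosomal protein genes. *Mest* shares 23.1% of its exon bases with *Copg2* on the opposite strand, an imprinted gene expressed mainly from the maternal chromosome, and *Copg2* went the other way, with 12.4 FPKM in WT and 7.40 in R255K at 0 h.

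*Peg3* (ENSMUSG00000002265.16, chromosome 7, 6703892 to 6730431, minus strand), a large zinc finger protein gene, had 3.96, 2.83 and 1.07 FPKM in WT and 2.73, 3.75 and 2.68 in R255K at 0, 4 and 8 h. It was thus lower in R255K at 0 h, with a ratio of 0.691 (0.621 to 0.768), and higher at 4 h, with 1.32 (1.19 to 1.47), and at 8 h, with 2.52 (2.14 to 2.97). On the log2 scale with 1 added, the 8 h difference was 0.83, under the limit. The proximal arm of chromosome 7 around *Peg3* held 10 measured neighbours, of which 1, *Aurkc*, was over 2-fold higher at 0 h (6.44% over all genes). *Aurkc* had 0.0753 FPKM in WT and 2.01 in R255K at 0 h. It passed the minimum level only through R255K and could enter the count only as higher.

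*Grb10* and *Igf2r* restrain growth and are expressed from the maternal chromosome in most tissues. *Grb10* encodes an adaptor that dampens insulin and IGF receptor signalling. *Grb10* (ENSMUSG00000020176.17, chromosome 11, 11930508 to 12038683, minus strand) had 7724, 9046 and 8581 counts in WT, against 1056, 1718 and 1863 in R255K, or 48.8 FPKM (47.7 to 49.9), 66.4 and 68.4 in WT and 7.43 (6.99 to 7.89), 10.2 and 10.9 in R255K at 0, 4 and 8 h. It was the most abundant of the 10 transcripts in WT at each time, and lower in R255K at each time. The WT level was 6.56-fold (6.15 to 7.01) that of R255K at 0 h, 6.54-fold (6.21 to 6.89) at 4 h and 6.27-fold (5.97 to 6.60) at 8 h. Among the 11869 genes, 5 had a log2 ratio below that of *Grb10* at 0 h.

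The fall of *Grb10* stood apart from its chromosome. The genes on the rest of chromosome 11 had a median log2 ratio at 0 h of 0.53, against 0.05 for all genes. That chromosome 11 leaned higher in R255K was known when the genes were chosen, so that this median only describes it. Of the 4 measured neighbours of *Grb10* within 1 Mb, *Ddc*, which encodes an enzyme of catecholamine and serotonin synthesis and shares the imprinted cluster with *Grb10*, was higher, with 3.29, 3.92 and 3.25 FPKM in WT and 9.21, 9.37 and 7.90 in R255K. *Cobl*, an actin nucleator gene on the other side, was lower at 0 h, with 34.4 FPKM in WT and 12.9 in R255K, but close at 8 h, with 10.7 and 9.73.

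*Igf2r* (ENSMUSG00000023830.14, chromosome 17, 12682406 to 12769664, minus strand), which encodes the receptor that clears IGF2, had 2036, 1557 and 1055 counts in WT, against 1627, 2157 and 2309 in R255K, which at 0 h was 12.38 and 11.02 FPKM. The ratio was 0.890 (0.834 to 0.951) at 0 h, 1.12 (1.05 to 1.19) at 4 h and 1.61 (1.49 to 1.73) at 8 h. *Airn*, the paternal antisense RNA of this cluster, had 0 counts in 5 libraries and 1 count in R255K at 8 h. *Igf2r* thus stayed within 2-fold at all times beside the larger difference of *Igf2*.

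By parent of origin, a grouping made after the values were seen, 4 of the 5 paternally expressed genes (*Igf2*, *Dlk1*, *Peg10* and *Mest*) were higher in R255K at all 3 times and none was lower. Of the 5 maternally expressed genes, 1 was higher (*H19*) and 1 lower (*Grb10*) at all 3 times. Over all genes 3.88% were higher and 0.902% lower at all 3 times. The median log2 ratios at 0, 4 and 8 h were 1.39, 1.28 and 1.60 for the paternally expressed genes and −0.11, 0.40 and 0.62 for the maternally expressed ones. The reads carry no allele in these tables, so which parental copy gave the RNA was not measured.

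In order of level per length at 0 h, the WT library ran *Grb10*, *Mest*, *Peg10*, *Igf2r*, *Rian*, *Meg3*, *Peg3*, *Igf2*, *Dlk1* and *H19*, with no overlap between the counting intervals of neighbours in the order. The R255K library ran *Peg10*, *Mest*, *H19*, *Igf2r*, *Rian*, *Grb10*, *Dlk1*, *Igf2*, *Meg3* and *Peg3*, in which the intervals of *Igf2r* and *Rian* overlapped, as did those of *Igf2* and *Meg3*. *Grb10* dropped from first to the sixth place and *H19* moved from last to the third. These are differences of counting between single libraries and carry no replicate error.

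After transcription was blocked, 5 of the 9 genes with WT counts rose relative to the WT library and 4 fell. FPKM is relative to the RNA still present, so a transcript that outlasts the average rises. Over all genes, the median FPKM relative to 0 h was 0.882 at 4 h and 0.641 at 8 h in WT and 0.964 and 0.920 in R255K. Of all genes, 42.5% stood above their 0 h FPKM at 4 h and 36.1% at 8 h in WT, and 45.2% and 43.7% in R255K. In WT, *Peg3* fell most, to 0.715 (0.643 to 0.795) of its starting level at 4 h and 0.269 (0.229 to 0.314) at 8 h. At 8 h *Peg10* was at 0.569 (0.537 to 0.602), *Mest* at 0.611 (0.571 to 0.654) and *Igf2r* at 0.654 (0.606 to 0.705), all 3 near the median gene. Decay rates from 0 to 4 h and from 0 to 8 h, averaged, gave a half-life of 5.59 h (4.88 to 6.55) for *Peg3*, 16.1 h (13.6 to 19.7) for *Peg10*, 16.5 h (13.4 to 21.4) for *Mest* and 16.8 h (13.3 to 22.9) for *Igf2r*. *Igf2*, *Dlk1*, *Meg3*, *Rian* and *Grb10* showed no fall relative to the library. These directions depended on the scaling: relative to the ribosomal protein genes, 7 of the 9 genes decayed in WT, with *Igf2*, *Rian* and *Grb10* added, and 2 of the 10, *H19* and *Mest*, in R255K.

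In R255K none of the 10 genes had a positive mean decay rate relative to the library, so that no half-life ratio between the genotypes could be formed (0 of 10 genes). Among all genes, 5504 had such a ratio, and it was over 1.5 for 68.8% of them. Another 3744 of the 11869 genes had no decay in either genotype. Decay in WT with no net decay in R255K was thus seen for 4 of the 10 genes, and for 13.8% of the 11869 genes. *Peg3* in R255K stood at 1.37 (1.23 to 1.52) at 4 h and 0.980 (0.875 to 1.10) at 8 h, *Mest* at 1.05 (1.01 to 1.09) and 0.926 (0.891 to 0.963), *Peg10* at 1.11 (1.08 to 1.13) and 1.13 (1.11 to 1.16), and *Igf2r* at 1.12 (1.05 to 1.19) and 1.18 (1.11 to 1.26). For these 4 genes the R255K value lay above the WT value at both times, without overlap of the counting intervals. *Meg3* and *Rian* rose most in R255K, to 2.67 (2.51 to 2.85) and 2.33 (2.23 to 2.43) at 4 h, and both were lower again at 8 h, at 2.21 and 1.84. These rises start from the R255K library at 0 h. At that time the trend by GC content amounted to −0.77 in the R255K over WT log2 ratio of *Rian* and 0.012 in that of *Meg3*. The part of this trend in the rises was not tested. *Grb10* rose alike in both genotypes, to 1.40 (1.36 to 1.45) in WT and 1.47 (1.36 to 1.58) in R255K at 8 h, and *H19* in R255K was at 0.938 (0.876 to 1.00) at 4 h and 1.20 (1.12 to 1.28) at 8 h.

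**Figure D4:**
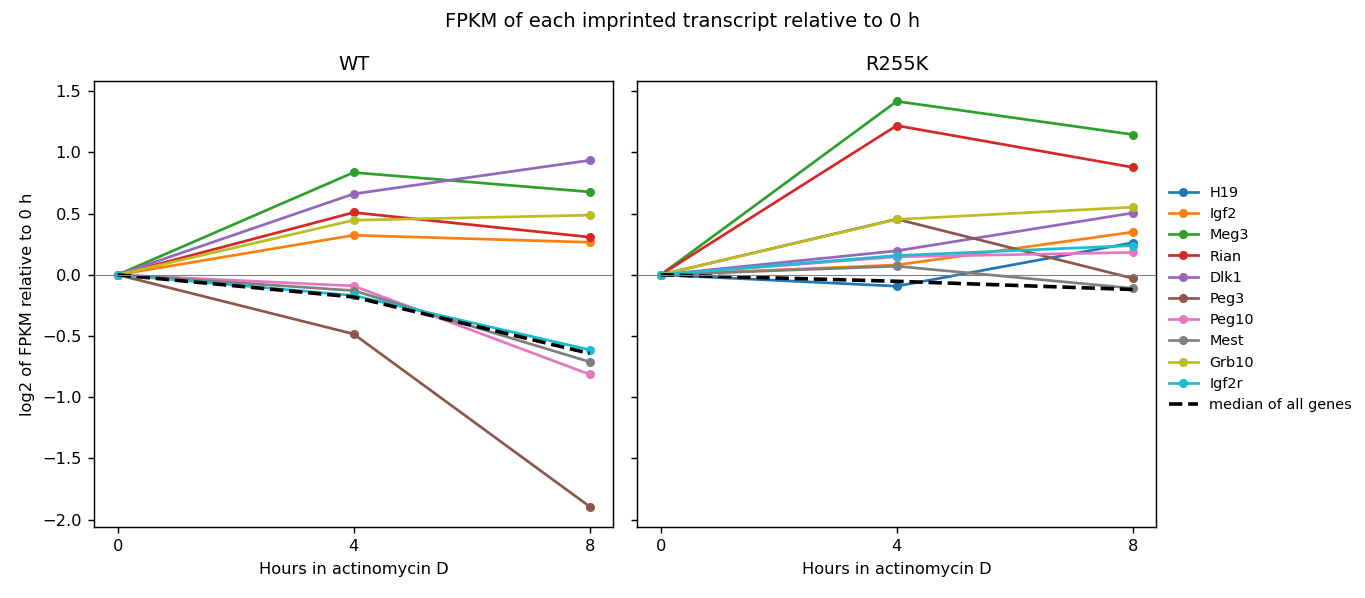
Log2 of FPKM at 4 and 8 h relative to 0 h (y axis) over hours in actinomycin D (x axis) for each imprinted gene, in WT (left) and R255K (right), with the median of all genes as a dashed line. *H19* is missing on the left because it had 0 counts. In WT *Peg3* falls to −1.89 at 8 h and *Peg10*, *Mest* and *Igf2r* lie near the dashed line, and in R255K *Meg3* and *Rian* reach 1.42 and 1.22 at 4 h.

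Of the 11 WT peaks on these genes, 8 were overlapped by at least 1 bp by an R255K peak and 3 were not, where 47.9% of all 13870 exonic WT peaks had no overlapping R255K peak. All 8 kept peaks had a lower fold enrichment in R255K, where 70.6% of the 7231 kept exonic peaks did. The R255K over WT ratio of their fold enrichment ran from 0.494 to 0.919 with a median of 0.649, against a median of 0.797 over all kept exonic peaks. The lists come from pooled libraries, so that no spread between replicates can be given, and the read depth behind them is unknown.

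The strongest peak, in the 3′UTR of *Peg3* 191 bases from the stop codon, fell from a fold enrichment of 12.04 in WT to 5.95 in R255K. The peak in the *Peg3* coding sequence (chr7:6708770-6709547), whose printed window holds 2 GGAC, was enriched 7.71-fold in WT, at a −log10 q of 46.3, and had no overlapping R255K peak. *Igf2r* lost its single peak (chr17:12683456-12683867, fold enrichment 5.17), which lay in the 3′UTR 66 bases from the stop codon. The *Peg3* and *Igf2r* transcripts were lower by less than 2-fold in R255K at 0 h and higher at 4 and 8 h, as given above.

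*Peg10* carried 5 WT peaks, 2 in coding sequence and 3 in the 3′UTR, and 4 R255K peaks. The 2 coding peaks went from 3.24 to 2.09 and from 2.81 to 2.09, and neither held GGAC within 100 bases of its WT summit. The first 2 peaks of the 3′UTR went from 3.59 to 2.97 and from 5.90 to 3.85, and the distal peak (chr6:4759320-4759526, 2.35 in WT) had no R255K partner. All *Peg10* peaks present in R255K were thus weaker, while the transcript was 4.43-fold higher at 0 h.

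The noncoding RNAs were marked close to an end. The *Meg3* peak had its summit 187 bases from the 3′ end of the gene and fell from 6.84 to 3.90, and the *Rian* peak, 772 bases from the 3′ end, fell from 4.80 to 2.54. The *H19* peak was in the R255K list alone (chr7:142577771-142578092), enriched 3.51-fold at a −log10 q of 23.1, and its summit lay 215 bases from the 5′ end. In WT *H19* had 0 counts in the 3 actinomycin D libraries. The *Grb10* peak, in the 3′UTR 166 bases from the stop codon, changed least, from 3.29 to 3.03, while the transcript was 6.56-fold lower in R255K.

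**Figure D5:**
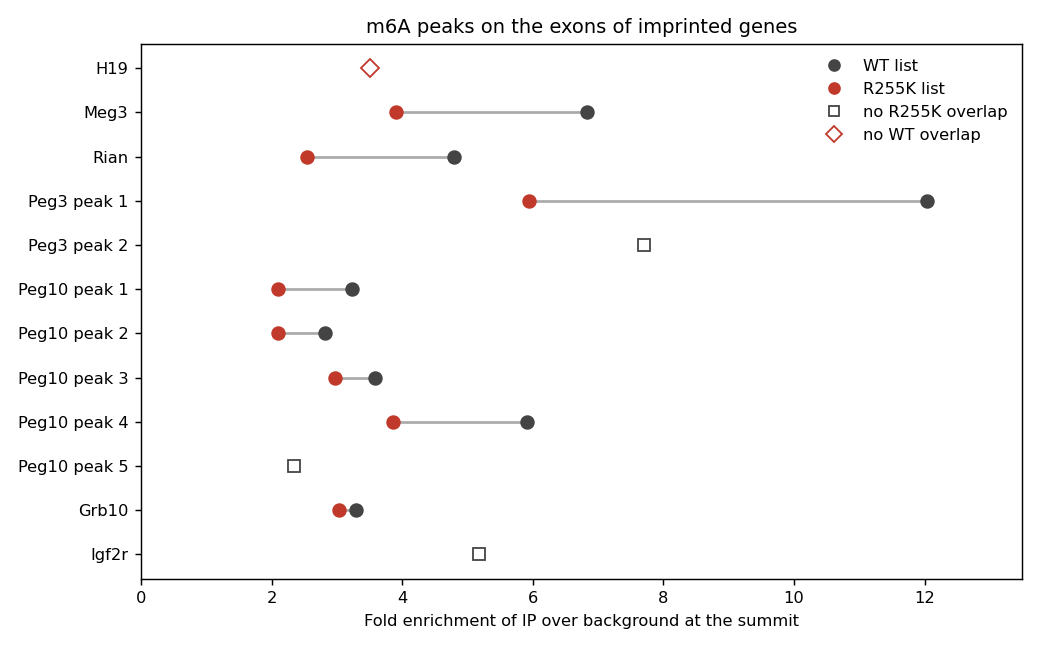
Fold enrichment of IP over background at the summit (x axis) of each exonic m6A peak on the imprinted genes (y axis, numbered in order of coordinate), in the WT list (grey) and the R255K list (red). Lines join overlapping peaks, and open symbols have no overlapping peak in the other list. In all 8 joined pairs the R255K point lies left of the WT point.

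The letters GGAC were sought in the sense strand up to 100 bases on either side of each summit. It was found in 9 of the 11 WT windows and 7 of the 9 R255K windows, and in 79.4% of 13005 WT windows and 82.9% of 8156 R255K windows over all exonic peaks. AGAC was found in 7 of the 11 WT windows (69.1% over all) and AAAC in 5 (51.5% over all). The windows were counted for each motif apart, and 1 window can hold several. A match is a description of letters and does not say which adenosine was marked.

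Beyond the 10 genes, 31 of 60 other imprinted genes passed the minimum mean level, of which 8 were higher and 4 lower at 0 h (6.44% and 5.92% over all genes), and the median of these 31 was 0.34. Of the 8, *Nnat* and *Peg12* were under 1 FPKM in WT at 0 h and passed only through R255K, so that these counts describe the list and support nothing. At all 3 times 4 were higher and 2 lower (3.88% and 0.902% over all genes). The furthest apart was *Nnat*, a paternally expressed gene of a small membrane protein of the brain, with 19, 20 and 18 counts in WT against 832, 888 and 1002 in R255K (log2 ratio 4.24 at 0 h). *Ndn* (1.66) and *Snrpn* (1.46), both of the paternally expressed Prader-Willi cluster on chromosome 7, were also higher. *Cobl* (−1.35), *Trappc9* (−1.13), *Ube3a* (−1.05) and *Cdkn1c* (−1.02) were lower at 0 h, and *Ube3a* was at 0.45 at 4 h and 0.92 at 8 h. Of the paternally expressed genes on this list 10 passed the minimum, with 4 higher, *Nnat* and *Peg12* among them, and 0 lower at 0 h (6 and 0 at 4 h, 5 and 0 at 8 h). Of the maternally expressed genes 14 passed, with 3 higher and 4 lower at 0 h (1 and 3 at 4 h and at 8 h). At 4 h 10.8% of all genes were higher and 2.16% lower, and at 8 h 2258 of the 11869 genes were higher and 292 lower.

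Among 18 genes that set or keep imprints, 16 passed the minimum, 2 were higher and 3 lower at 0 h (6.44% and 5.92% over all genes). *Dppa3*, which shields the maternal genome of the zygote from loss of methylation, was higher, with 22, 20 and 32 counts in WT against 339, 376 and 413 in R255K (log2 ratio 3.39 at 0 h). The de novo methyltransferase gene *Dnmt3b* was at 43.2 FPKM in WT and 102 in R255K at 0 h (1.22). *Tet2* (−2.40), *Tet1* (−1.91) and *Zfp445* (−1.29) were lower at 0 h, but *Tet1* was at 0.19 at 4 h and 1.59 at 8 h and *Zfp445* at 0.30 and 1.05, so that of these 3 genes only *Tet2* was below 0 at all 3 times. *Zfp57*, whose protein binds methylated control regions, and its corepressor *Trim28* were at −0.65 and −0.13 at 0 h, and the maintenance methyltransferase *Dnmt1* at −0.38.

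Of 16 genes of the IGF pathway, 12 passed the minimum, with 2 higher and 1 lower at 0 h (6.44% and 5.92% over all genes). The binding protein genes *Igfbp3* (log2 ratios 1.93, 2.28 and 3.05 at 0, 4 and 8 h) and *Igfbp4* (1.79, 1.61 and 1.58) were higher. *Igf2bp3*, which encodes an RNA-binding protein that also recognises m6A, was lower (−1.59, −1.55 and −1.74). The receptors *Igf1r* and *Insr* were at −0.13 and 0.02 at 0 h.

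Markers of the stem cell state were abundant in both genotypes, and most of those of other cell types were low. The 8 pluripotent cell markers summed to between 2378 and 2793 FPKM in WT and between 1732 and 1988 in R255K. The 6 mesoderm markers summed to between 0.341 and 1.39 FPKM in WT and 3.50 to 5.41 in R255K, and the 6 fibroblast markers to 2.24 to 2.38 and 6.31 to 7.20. The largest part of the fibroblast sum was *Thy1*, at 1.55 FPKM in WT and 4.01 in R255K at 0 h. *Pdgfra* went the other way at 0 h, with 0.607 FPKM in WT and 0.376 in R255K. The 6 trophoblast markers summed to between 13.4 and 15.7 FPKM in WT and 40.0 to 50.9 in R255K. Most of this was the keratin gene *Krt8*, also expressed in other epithelia. *Krt8* had 9.60 FPKM in WT and 35.7 in R255K at 0 h, a log2 ratio of 1.79. The 6 endoderm markers summed to 9.04 FPKM in WT and 5.91 in R255K at 0 h and under 1 later. They did not move as one. At 0 h *Sox7* (3.67 FPKM in WT and 0.756 in R255K), *Gata4* (3.35 and 1.74) and *Gata6* (1.40 and 1.12) were lower in R255K. *Foxa2* (0.291 and 1.67) and *Sox17* (0.325 and 0.630) were higher, and *Afp* had 0 counts in both. *Lum* was at 0 in all 6 libraries. The trophoblast, mesoderm and fibroblast sums were thus higher in R255K, the first and the last with *Krt8* and *Thy1* as their largest parts. The part of such cells in the differences of the imprinted genes was not tested. In bulk samples a larger share of cells that express a gene cannot be told apart from more RNA per cell.

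For each gene the 2 genes with the nearest profile were sought among 11327 genes, by the Euclidean distance of log2(FPKM + 1) over the 6 libraries after each profile was centred. *H19* was nearest to *Fmr1nb* (distance 0.41) and *Nnat* (1.74), *Igf2* to *Hapln4* (0.10) and *Ptdss2* (0.18), and *Dlk1* to *Alox15* (0.15) and *Hist3h2ba* (0.16). *Fmr1nb*, an X-linked gene, had 0.306, 0.285 and 0.309 FPKM in WT and 65.1, 73.1 and 77.8 in R255K. *Meg3* was nearest to *Gm9104* (0.33) and *Fundc1* (0.34), and *Rian* to *Gm25911* (0.27) and *Zfp692* (0.28). *Peg3* was nearest to *Cul1* (0.14) and *Tjp1* (0.17), *Peg10* to *Ccm2* (0.34) and *Cd276* (0.35), and *Mest* to *Vmp1* (0.19) and *Spg20* (0.20). *Grb10* was nearest to *Parvb* (0.35) and *Atp2a3* (0.46). Among the pairs named here the only imprinted gene was *Nnat*, beside *H19*.

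The gene of the edited protein was itself measured: the counts of *Mettl14* were 681, 376 and 232 in WT against 299, 280 and 209 in R255K, which does not check the substitution, since the counts carry no codon.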

How the data were processed

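The actinomycin D tables hold counts per gene, deposited by the authors without normalization, with exon lengths. The submitters' processing notes name the build mm10 and the tools HISAT2, Bowtie2 2.2.6 (used by the authors against rRNA), Picard 2.16.0 and SAMtools 0.1.09. The counting tool, strand setting and annotation are not given in the sources used here. All 10 gene positions equal those of GENCODE vM21, which was used for exons. For the peaks, the authors ran MACS2 on IP against input. The deposited fold enrichment is a ratio over the local background at the summit, the deposited −log10 q is that of MACS2, and the deposited score restates it and was not used.

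FPKM was computed from counts, lengths and summed counts. Log2 ratios used a pseudocount of 1, and genes needed a mean FPKM of 1 over both 0 h libraries. A decay rate was the log of the 0 h FPKM over the later FPKM, divided by the hours between, averaged over 4 h and 8 h, after the FPKM-based lifetimes of the study, with delta-method intervals. Scripts were tested on simulated data. Software was Python 3.11.15 with scipy 1.17.1, pandas 2.3.3, statsmodels 0.14.6, numpy 2.4.6, matplotlib 3.10.9 and pysam 0.24.0, and edgeR 4.0.16 in R 4.3.3, used for TMM factors alone. Alternatives were other scalings, limits, pseudocounts, a GC trend (lowess span 0.3), other time points and other overlap rules.

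Named genes are the 10, their 2 nearest profiles, those of the wider lists past 2-fold at 0 h (at most 6 per list) and genes of the *H19* and *Dlk1* clusters. Any gene named outside this rule (other neighbours, markers, writers and readers of imprints) was chosen after its values were seen. The 10 genes and the lists were chosen with earlier results of these data known. The nearest profiles of *Igf2r* are not reported here.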

Additional observations from a re-analysis of the deposited data

Results flagged for a closer look

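For 2 genes the FPKM fell below its 0 h level at both 4 and 8 h in WT and rose above it at both times in R255K. The log2 of FPKM at 8 h over 0 h was −0.81 in WT and 0.18 in R255K for *Peg10*, a difference of 0.996. For *Igf2r* it was −0.61 and 0.24, a difference of 0.852. With 1 library per genotype and time the difference was not tested. Over all genes with counts in every library, 877 of 11660 (7.52%) had the same pattern.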

How the results depend on the processing

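The count of 6 genes past 2-fold at 0 h became 5 with TMM factors and with scaling to 88 ribosomal protein genes, which both left *Mest* under the limit, and was 6 with a pseudocount of 0.1, without a minimum level, with a 1.5-fold limit, with the GC trend subtracted, and, in comparisons added after seeing the data, in the 4 h and 8 h libraries. Scaling to ribosomal protein genes moved the median log2 ratio of all genes from 0.05 to −0.08. None of the 6 genes changed sign in any of these settings. Of the others, *Peg3* ran from −0.54 to 0.83, *Igf2r* from −0.30 to 0.62 and *Rian* from −0.03 to 0.87. The count of genes with a half-life ratio over 1.5 was 0 with TMM factors, at 4 h alone and with a limit of 2, but 1 with scaling to ribosomal protein genes (*Mest*), 2 at 8 h alone (*Peg3* and *Mest*) and 2 between 4 and 8 h (*Peg3* at 2.91 and *Mest* at 3.23, with *Meg3* at 0.583 and *Rian* at 0.589). With scaling to ribosomal protein genes this was 1 of 1 listed gene with a ratio, against 81.4% of all genes with a ratio. At 8 h alone it was 2 of 2 against 75.5%, and between 4 and 8 h 2 of 4 against 72.7%. In the settings with a count of 0, no listed gene had a ratio. Relative to ribosomal protein genes, 7 of 9 genes decayed in WT and 2 in R255K, against 4 and 0 relative to the library. WT peaks without an R255K overlap numbered 3 of 11, and the same with 50% coverage, a −log10 q of at least 5 or whole gene bodies. With a fold enrichment of at least 4 in both lists they numbered 5 of 6. That limit took out the overlapping R255K peaks of *Meg3* (3.90), *Peg10* (3.85) and *Rian* (2.54). Over all exonic WT peaks the share was 47.9% without this limit and was not computed with it, so the 5 of 6 only describes the list. No paired analysis was possible because the actinomycin D columns carry no replicate numbers and the peak lists are pooled. A fit with time as a block was not run. Depth limits *Igf2* and *Dlk1* in WT, at 64 to 114 counts, and *H19* in WT, at 0 counts.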
